A study of Mus musculus with 24 samples.

Results

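The heat shock chaperones described here are 10 transcripts of mouse thoracic aorta: Hspa1a, Hspa1b, Hspa8, Hspa5, Hsph1, Hsp90aa1, Dnajb1, Hspb1, Hspd1 and Hspe1. They were found by symbol among the 25941 genes of the deposited count table, where each had 1 row, and all 10 were among the 14528 genes with enough reads to be tested. The tissue came from wildtype adult male C57BL/6 mice, aged 10 to 12 weeks. The diets, fed for 3 weeks, were chow to which celecoxib (100 mg/kg/day) or rofecoxib (50 mg/kg/day) had been added, and plain chow as control, with 8 libraries per diet. Every mouse, control mice included, received 10 ug/kg interleukin-1β by intraperitoneal injection 4 h before collection at zeitgeber time 11, so no group shows the chaperones without the cytokine. Celecoxib and rofecoxib both selectively inhibit cyclooxygenase-2, and they were given at different doses. The labels' design text calls the samples biological replicates.

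Molecular chaperones bind unfolded proteins and help them to fold, to refold or to be degraded. The cytosolic members and the mitochondrial pair are induced by heat and other protein-damaging stress through heat shock factor 1, which binds repeated, alternating GAA and TTC units in their promoters. Hspa5 belongs mainly to the unfolded protein response of the endoplasmic reticulum. In arterial smooth muscle, chaperones assist the folding of the contractile and cytoskeletal proteins, and Hspb1 binds to actin filaments.

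Promoter sequences are shown because the members fall into groups by what these windows hold. Windows of 300 bases, from 250 bases before to 50 after an annotated start, were found for 8 of the 10 members in RefSeq on GRCm38.p6, and the 250 bases before the start are printed, 5′ to 3′ on the gene's strand. Windows for Hspa8 and Hsp90aa1 were not used. Capitals mark heat shock elements, searched as GAANNTTC or TTCNNGAA on both strands, where a run of more units holds several overlapping matches, and in Hspa5 the endoplasmic reticulum stress element, searched as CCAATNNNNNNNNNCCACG on both strands. The Hspa1a window lies on the minus strand at chr17:34972157-34972406, that of Hspb1 on the plus strand at chr5:135887669-135887918 and that of Hsph1 on the minus strand at chr5:149636337-149636586. The Hspe1 window lies on the plus strand at chr1:55087898-55088147 and the Hspa5 window on the plus strand at chr2:34771840-34772089.
Hspa1a: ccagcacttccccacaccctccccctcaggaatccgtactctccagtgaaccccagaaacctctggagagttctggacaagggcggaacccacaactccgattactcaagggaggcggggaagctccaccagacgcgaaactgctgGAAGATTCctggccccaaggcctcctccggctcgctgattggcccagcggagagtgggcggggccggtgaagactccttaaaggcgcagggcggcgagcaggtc
Hspb1: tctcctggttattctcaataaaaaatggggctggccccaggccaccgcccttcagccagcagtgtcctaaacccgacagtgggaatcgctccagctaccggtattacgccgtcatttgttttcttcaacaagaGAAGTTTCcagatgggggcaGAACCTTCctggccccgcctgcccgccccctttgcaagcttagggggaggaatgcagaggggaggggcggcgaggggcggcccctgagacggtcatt
Hsph1: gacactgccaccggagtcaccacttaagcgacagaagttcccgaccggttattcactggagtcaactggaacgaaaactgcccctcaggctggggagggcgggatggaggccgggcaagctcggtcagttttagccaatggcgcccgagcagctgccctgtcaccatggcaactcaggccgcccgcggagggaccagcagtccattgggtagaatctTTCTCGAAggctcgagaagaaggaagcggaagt
Hspe1: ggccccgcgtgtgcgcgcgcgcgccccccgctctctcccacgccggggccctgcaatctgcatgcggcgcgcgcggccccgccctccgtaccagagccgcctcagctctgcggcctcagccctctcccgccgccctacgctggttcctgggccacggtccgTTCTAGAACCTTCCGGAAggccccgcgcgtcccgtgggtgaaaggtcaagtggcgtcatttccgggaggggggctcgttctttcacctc
Hspa5: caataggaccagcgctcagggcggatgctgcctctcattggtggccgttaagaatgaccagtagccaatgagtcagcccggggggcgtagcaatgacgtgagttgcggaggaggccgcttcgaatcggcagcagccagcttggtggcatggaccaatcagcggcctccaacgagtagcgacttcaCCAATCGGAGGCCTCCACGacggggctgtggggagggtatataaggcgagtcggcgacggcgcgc

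The Hspa1a window held 1 paired element, starting 104 bases before the start site, and the Hspa1b window differed from it at 4 of 300 positions and held the same element. Hspb1 held 2 separate pairs. In Hspe1 the capitals are an unbroken run of alternating units, and the run lies in sequence that Hspe1 shares with Hspd1: its window and that of the second annotated Hspd1 start have 285 bases in common, on opposite strands. Hsph1 held 1 pair before the start, in capitals, and a run of 3 units after it, which is not printed. The members had 11 windows, and in any of these at least 1 pair was found for 6 members and a run of 3 units for 3 (Hsph1, Hspd1 and Hspe1). Of all 32851 promoter windows, 15.1% and 0.603% held them. The counts of members are not directly comparable with these shares of windows. The run of Hspd1 and Hspe1 is 1 shared sequence, and the first Hspd1 window held no pair. Hspa5 held the endoplasmic reticulum stress element, found in 0.119% of all windows, and no heat shock pair. The 2 Dnajb1 windows held none of these letters. These matches describe the sequence and say nothing of whether a factor was bound.

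Levels were compared between genes as CPM (counts scaled to each library's size, after TMM scaling) per kilobase of exon, with exon lengths from GENCODE vM21. In control aortas Hspa8, the constitutive cytosolic HSP70, stood highest at 927 ± 50.2 CPM per kilobase (SD, n = 8), followed by Hspb1, a small heat shock protein, at 849 ± 196. These 2 genes overlapped between libraries. Hspa5, the HSP70 of the endoplasmic reticulum known as BiP, followed at 257 ± 28.3 and Hsp90aa1, the inducible HSP90 isoform, at 115 ± 20.1. The mitochondrial chaperonin subunits Hspd1 (HSP60) and Hspe1 (HSP10), which work as a complex, were at 80.2 ± 11 and 76.1 ± 9.62 CPM per kilobase and did not differ beyond their spread. Hsph1, an HSP110 that exchanges nucleotide on HSP70, was at 58.2 ± 8.86. Lowest were Dnajb1, the HSP40 that delivers substrates to HSP70, at 12.3 ± 1.34, Hspa1b at 10.5 ± 2.33 and Hspa1a at 6.53 ± 1.59 CPM per kilobase. Hspa8 thus had the highest and Hspa1a the lowest level per length in each diet group, and the order changed only between Hspd1 and Hspe1 and between Dnajb1 and Hspa1b with celecoxib.

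**Figure D1:**
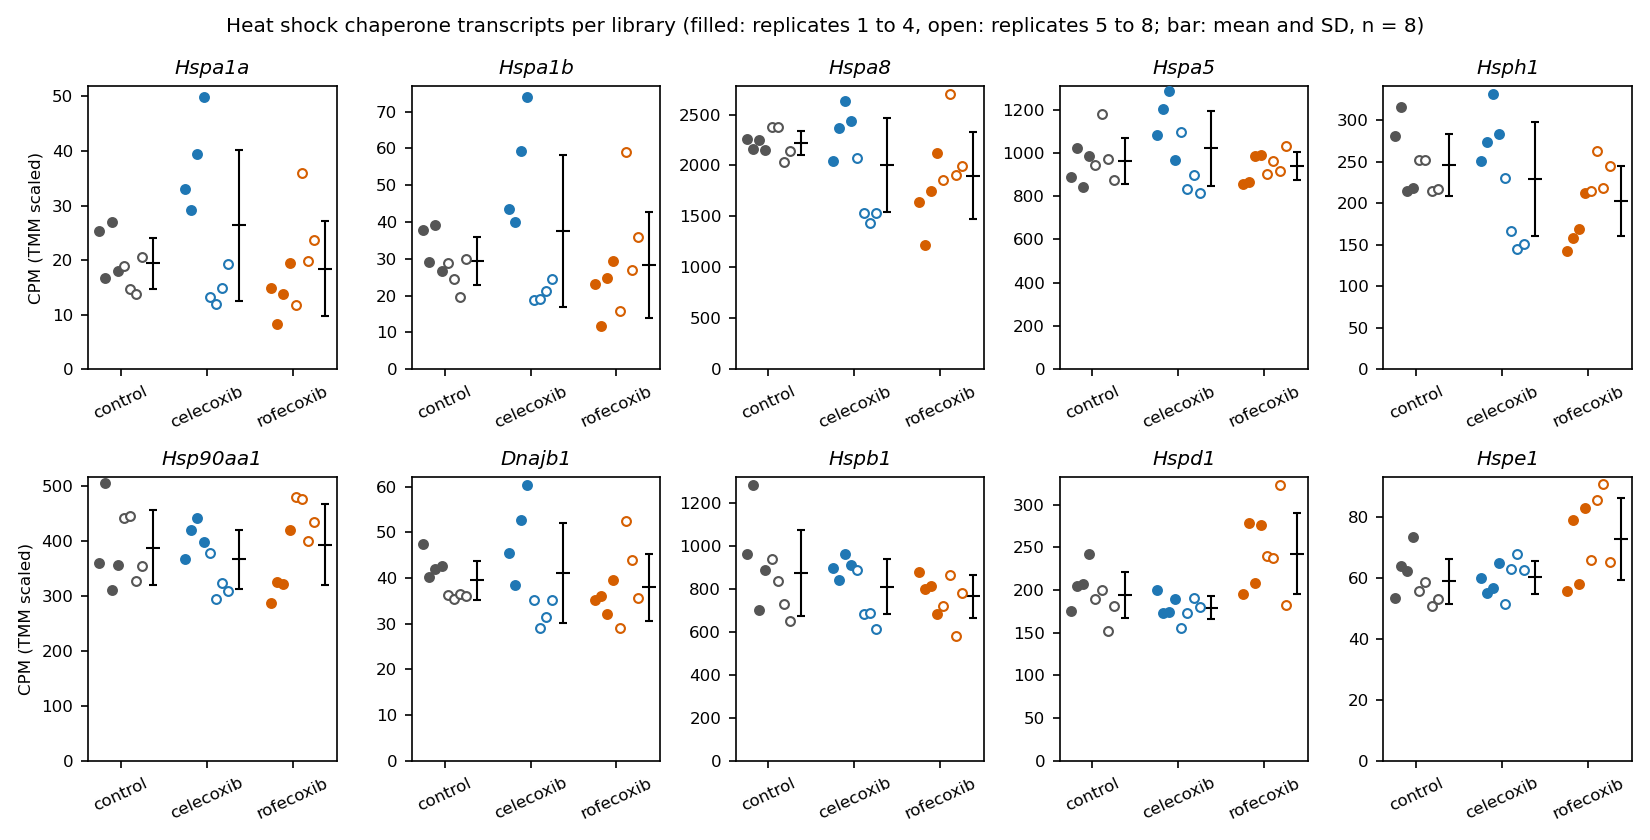
TMM-scaled CPM (linear axes from 0) of each chaperone in the 8 libraries of each diet group; points are libraries in order of replicate number, filled for replicates 1 to 4 and open for 5 to 8, and bars are mean and SD. Hspa8 was between 2034 and 2380 CPM in controls but between 1221 and 2706 CPM with rofecoxib, and the Hspd1 points of rofecoxib sit mostly above those of celecoxib.

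With celecoxib no chaperone passed the test against control. Hspa1a, a stress-inducible HSP70, ranged in the controls from 13.7 CPM to 26.9 CPM around a median of 18.5 CPM, and with celecoxib from 11.9 CPM to 49.8 CPM around a median of 24.3 CPM. The celecoxib libraries therefore reached both above and below the control range. The log2 fold change of Hspa1a was 0.44 (SE 0.29, adjusted p = 0.504) and that of its near-identical neighbour Hspa1b was 0.35 (SE 0.30, adjusted p = 0.608). Hspa8 had a log2 fold change of -0.14 (SE 0.13) and Hspa5 of 0.08 (SE 0.09). For the other 6 members the log2 fold changes lay between -0.11 for Hspd1 and 0.05 for Dnajb1. Of all 14528 genes, 5 (0.0344%) passed in this comparison (edgeR, quasi-likelihood; p adjusted by Benjamini-Hochberg over all genes), and 1969 (13.6%) had an unadjusted p under 0.05, against 0 of 10 chaperones by either measure. The median log2 fold change of the chaperones was -0.025, beside 0.0014 for all genes. DESeq2 called 110 genes and limma voom 121, and neither called a chaperone.

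With rofecoxib the mitochondrial chaperonin pair had the largest differences from control, just short of the threshold. Hspd1 ranged in the controls from 152.5 to 242.5 CPM with a median of 195.2 CPM, and with rofecoxib from 182 to 323.5 CPM with a median of 238.8 CPM. The groups overlapped, with 7 of 8 rofecoxib libraries above the control median and 3 above the highest control. The log2 fold change of Hspd1 was 0.32 (SE 0.10, adjusted p = 0.0526). Hspe1 went from 58.9 ± 7.45 CPM in controls to 72.8 ± 13.4 CPM with rofecoxib (SD, n = 8 each), with 4 of 8 rofecoxib libraries above the highest control, and its log2 fold change was 0.31 (SE 0.10, adjusted p = 0.0533). DESeq2, which called 1812 genes (12.5%), called both (adjusted p = 0.0315 for Hspd1 and 0.035 for Hspe1). Limma voom with sample weights, which called 2448 genes (16.9%), did so too (adjusted p = 0.0168 and 0.0152). In a fit with covariates for brown adipocyte and skeletal muscle levels the log2 fold changes were 0.16 and 0.17 (adjusted p = 0.182 and 0.205). The brown adipocyte list holds genes of mitochondrial proteins, so that fit can also take out part of a mitochondrial difference.

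The members outside the mitochondria had log2 fold changes of 0.02 or less with rofecoxib, and none passed. Hspa8 had a log2 fold change of -0.22 (SE 0.13, adjusted p = 0.261), and 6 of 8 rofecoxib libraries were below the lowest control. Hsph1 had a log2 fold change of -0.28 (SE 0.16, adjusted p = 0.253) and was below the lowest control in 4 of 8 libraries, Hspb1 had -0.19 (SE 0.12, adjusted p = 0.304), and Hspa1a, Hspa1b, Hspa5, Dnajb1 and Hsp90aa1 lay between -0.07 and 0.02. Of all genes tested, 1008 (6.94%) passed, 563 higher (3.88%) and 445 lower (3.06%), against 0 of 10 chaperones. This split depended on the scaling: with library size alone it was 1106 higher and 310 lower. At an unadjusted p under 0.05 there were 4103 genes (28.2%) and 2 chaperones, Hspd1 and Hspe1. The median log2 fold change was -0.057 for the chaperones and 0.0229 for all genes.

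**Figure D2:**
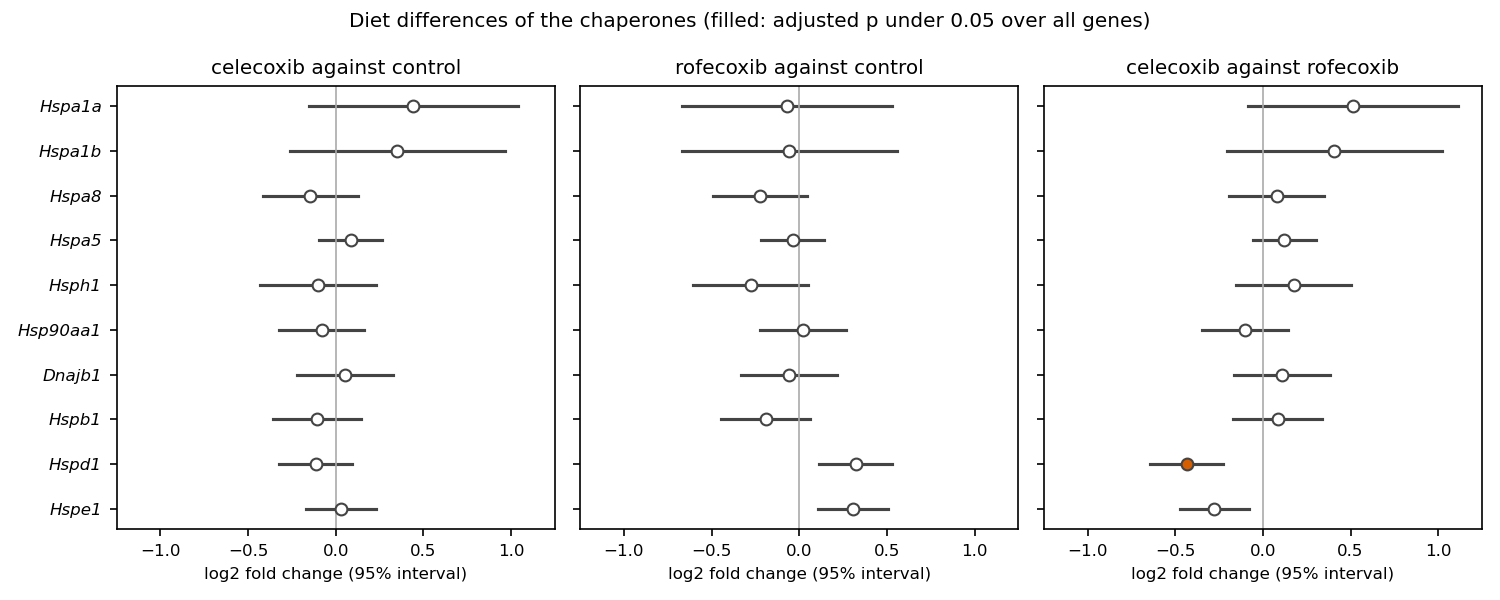
Log2 fold changes of the 10 chaperones with 95% intervals (edgeR, 8 libraries a group) in 3 comparisons; filled points have an adjusted p under 0.05 over all 14528 genes. The one filled point is Hspd1 between celecoxib and rofecoxib, at -0.44.

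Between the drug groups, Hspd1 was lower with celecoxib than with rofecoxib. It ranged from 156 to 199.7 CPM in the celecoxib libraries, with a median of 177 CPM. Only the rofecoxib libraries of replicates 1 and 8, at 195.4 CPM and 182 CPM, lay within that range, and the other 6 were above it. The log2 fold change, celecoxib against rofecoxib, was -0.44 (SE 0.10, adjusted p = 0.0369), and in the joint test of the 3 diets Hspd1 had an adjusted p of 0.0306. Hspe1 had a log2 fold change of -0.28 (SE 0.10, adjusted p = 0.0822) and did not pass. Hspd1 was thus 1 of 10 chaperones called, beside 710 of all genes (4.89%), of which 628 were lower with celecoxib (4.32%). At an unadjusted p under 0.05 there were 3344 genes (23%) and 2 chaperones, Hspd1 and Hspe1. Hspd1 was also the 1 chaperone called in the joint test, beside 1107 genes (7.62%). The doses differed, so this compares the diets as given and not the compounds at matched doses.

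The Hspd1 call was not firm. It was lost without the filter on low counts (adjusted p = 0.056), in the fit of the drug groups alone (0.0615), with the replicate number as a block (0.0532), in replicates 1 to 4 alone (0.0652) and 5 to 8 alone (0.766), and in 8 of the 24 fits that left out 1 library, which were those without celecoxib replicate 2 (adjusted p = 0.0783), 3 (0.0874), 4 (0.0669) or 5 (0.0802), or without rofecoxib replicate 2 (0.0798), 3 (0.0535), 4 (0.0671) or 7 (0.0623). With covariates for brown adipocyte and skeletal muscle levels, the log2 fold change of Hspd1 was -0.16 (adjusted p = 0.467). The same limit of the brown adipocyte list holds here.

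Adipocyte markers, those of the brown fat that surrounds the thoracic aorta among them, moved with the mitochondrial pair. The brown adipocyte list, in which Ucp1, Cox7a1 and Cox8b encode mitochondrial proteins, held 9 genes, all detected in every library. Its summed level ranged from 283.7 to 1288 CPM in controls, from 205.2 to 650.2 CPM with celecoxib and from 475.7 to 1957 CPM with rofecoxib. Of these 9 genes, 0 passed against control with either drug, and 3 were lower with celecoxib than with rofecoxib, beside 4.32% of all genes. Across the 24 libraries, with group means removed, Hspd1 correlated with the mean log2 level of the list at a Pearson r of 0.82 (Spearman rho 0.78, permutation within groups, adjusted p = 0.0011 and 0.0038 over 110 relations). It was 0.86 within replicates 1 to 4, 0.83 within 5 to 8 and 0.80 without the 2 libraries farthest from the median. For Hspe1 the Pearson r was 0.72 (Spearman rho 0.69, permutation adjusted p = 0.0099 and 0.021), and 0.68 without those libraries. The general adipocyte list went with Hspd1 as well, at r = 0.68 (rho 0.66, permutation adjusted p = 0.0099 and 0.021), and 0.48 without the 2 farthest libraries; within replicates 1 to 4 it was 0.46 and within 5 to 8 it was 0.90. Other marker lists also differed between the drugs. Lower with celecoxib than with rofecoxib were 6 of 11 general adipocyte genes and 8 of 9 neutrophil genes, beside 4.32% of all genes. So were 5 of 10 macrophage genes and 4 of 7 Schwann cell genes. Higher with rofecoxib than in controls were 3 of 10 endothelial, 3 of 11 general adipocyte and 1 of 10 macrophage genes, beside 3.88% of all genes. Of 8 fibroblast genes, 2 were lower with rofecoxib than in controls, beside 3.06% of all genes. The part of these lists in the chaperone differences was not tested. Hspd1 and Hspe1 are expressed in all cell types with mitochondria, and in whole tissue fewer cells of a type and less RNA per cell cannot be told apart.

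**Figure D3:**
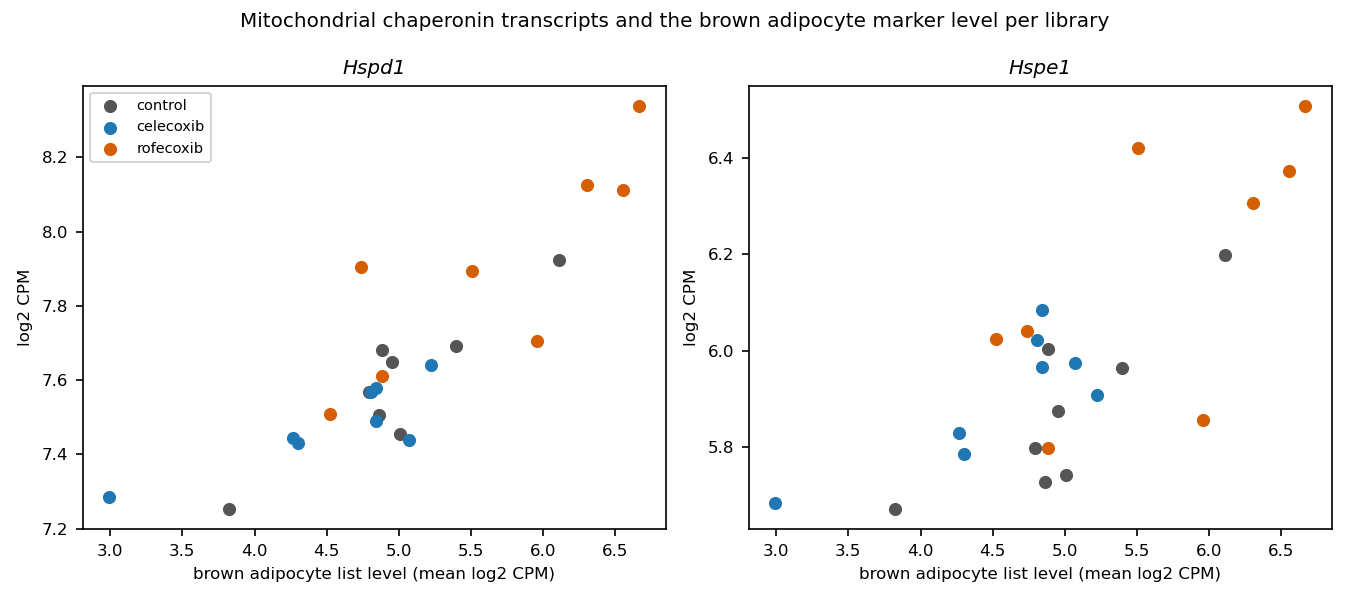
Log2 CPM of Hspd1 (left) and Hspe1 (right) against the mean log2 CPM of 9 brown adipocyte markers, 1 point per library, coloured by diet. In both panels the libraries with a higher marker level have a higher chaperonin level, with a Pearson r of 0.82 and 0.72 after removal of group means.

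Other mitochondrial chaperones passed in both comparisons with rofecoxib. Of 15 other mitochondrial chaperones and proteases tested, 2 rose with rofecoxib, beside 3.88% of all genes: Grpel1, the nucleotide exchange factor of mitochondrial HSP70, from 58.7 ± 7.90 CPM to 74.4 ± 11 CPM (log2 fold change 0.34, SE 0.08, adjusted p = 0.0215), and Hspa9, that HSP70 itself, from 323 ± 49.8 CPM to 409 ± 61.3 CPM (0.34, SE 0.09, adjusted p = 0.0282). The list's median log2 fold change was 0.196, beside 0.0229 for all genes. Between celecoxib and rofecoxib, 4 of the 15 were lower with celecoxib, beside 4.32% of all genes: Hspa9 (log2 fold change -0.39, SE 0.09), Dnaja3, a mitochondrial J-domain protein (-0.45, SE 0.12), the protease subunit Afg3l2 (-0.31, SE 0.08) and Grpel1 (-0.31, SE 0.08), at adjusted p between 0.0369 and 0.0389. With celecoxib against control 0 of 15 passed and 3 had an unadjusted p under 0.05, beside 13.6% of all genes. None of these 4 was called between the drugs without the filter on low counts, with the drug groups alone, with the replicate number as a block or in replicates 5 to 8 alone, nor in the 8 fits without 1 library in which Hspd1 lost its call. Against control, the call of Hspa9 was lost in 7 of the 24 fits that left out 1 library and that of Grpel1 without control replicate 2 (adjusted p = 0.0507). Hspa9 also lost it in the fit of the control and rofecoxib groups alone (adjusted p = 0.0574). Both lost it in replicates 1 to 4 alone and in 5 to 8 alone. The level of brown adipocyte markers moved in the same direction. With the brown adipocyte and skeletal muscle covariates none of the 6 calls remained. The log2 fold changes against control were 0.21 for Grpel1 (adjusted p = 0.0526) and 0.21 for Hspa9 (0.0898). Those between the drugs lay between -0.17 for Hspa9 and -0.09 for Grpel1 (adjusted p between 0.466 and 0.611). The brown adipocyte list holds genes of mitochondrial proteins, so this covariate can take out part of the difference itself. Of the skeletal muscle list 5 of 10 genes were tested, at medians between 0.38 and 3.72 CPM. Its highest level, 2.83, was that of control replicate 3. What the lost calls came from was not tested.

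Hspa1a, Hspa1b, Hspa8, Dnajb1 and Hsph1 had a wider spread among the libraries of either drug than among the controls. The coefficient of variation of Hspa1a was 24.4% in controls, 52.5% with celecoxib and 46.9% with rofecoxib, and that of Hspa1b was 22.2%, 54.7% and 51.2%. Hspa8 had the narrowest control range of all 10 members, from 2034 to 2380 CPM, a coefficient of variation of 5.4%, but 22.9% with celecoxib and 22.3% with rofecoxib. Dnajb1 had 10.8%, 26.7% and 19.3%, and Hsph1 15.2%, 30.1% and 20.9%. Hsp90aa1 had 17.6%, 14.6% and 18.7%. Hspb1 went the other way, from 23% in controls to 16% and 12.9%, and Hspa5 had 11%, 16.9% and 6.83%. These spreads are given as a description, without a test.

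Much of that spread followed the replicate numbers, and in opposite directions in the drug groups. The labels give no meaning to the numbers, library construction took 3 days with the day of each library not given, and the division into replicates 1 to 4 and 5 to 8 was taken up because earlier results of these data showed it, so the p-values on it are not independent support. With celecoxib, Hspa1a was at 33.0, 29.3, 39.4 and 49.8 CPM in replicates 1 to 4 and at 13.2, 11.9, 14.8 and 19.4 CPM in replicates 5 to 8. With rofecoxib it was at 14.8, 8.20, 13.8 and 19.5 CPM in replicates 1 to 4 and at 11.7, 36.0, 19.8 and 23.7 CPM in 5 to 8. The celecoxib sets did not overlap and the rofecoxib sets did. In controls the means were 21.8 and 17.0 CPM. Hsph1 showed the same division, at 251.4 to 331.8 CPM and then 144.3 to 230.1 CPM with celecoxib, and at 142.8 to 212.1 CPM and then 215.3 to 263.5 CPM with rofecoxib, without overlap in either.

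The difference between the diets therefore changed sign with the set for these genes. In replicates 1 to 4 alone, celecoxib against rofecoxib gave log2 fold changes of 1.43 for Hspa1a (adjusted p = 0.0102), 1.29 for Hspa1b (0.014), 0.74 for Hsph1 (0.0135), 0.49 for Hspa8 (0.0347) and 0.47 for Dnajb1 (0.0272). These were 5 of 10 chaperones called, beside 2073 of 14669 genes (14.1%) in that fit. In replicates 5 to 8 alone those of Hspa1a, Hspa1b, Hsph1 and Hspa8 were -0.62, -0.71, -0.44 and -0.36, each with an adjusted p of 0.766. The median over the 10 chaperones was 0.382 in the first set and -0.401 in the second. The test of the change itself gave -2.05 for Hspa1a (SE 0.40, unadjusted p = 4.41e-05, adjusted p = 0.0884), -2.00 for Hspa1b (SE 0.43, adjusted p = 0.0893) and -1.19 for Hsph1 (SE 0.21, adjusted p = 0.0804). After adjustment it called 0 chaperones and 0 (0%) of all genes, with 1940 genes under an unadjusted p of 0.05. Hspd1 and Hspe1 did not share this division: their changes were -0.11 (SE 0.20) and -0.11 (SE 0.19), and Hspd1 was lower with celecoxib than with rofecoxib in both sets, at log2 fold changes of -0.38 (adjusted p = 0.0652) and -0.48 (adjusted p = 0.766), neither of which passed.

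**Figure D4:**
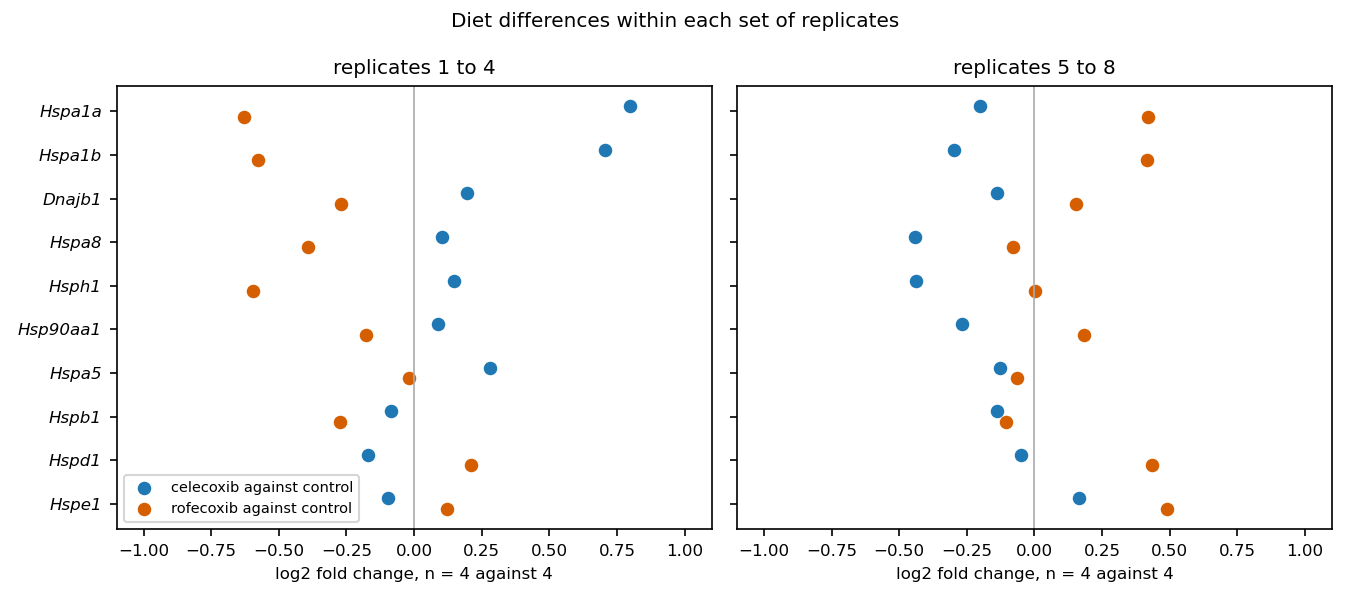
Log2 fold changes against control within replicates 1 to 4 (left) and 5 to 8 (right), 4 libraries a group, for celecoxib (blue) and rofecoxib (orange). Hspa1a with celecoxib lies at 0.80 on the left and -0.20 on the right, and with rofecoxib at -0.63 and 0.42, while Hspd1 with rofecoxib is above 0 in both.

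Across mice the chaperones varied together in 2 blocks. Of the 45 pairs, correlated over 24 libraries on log2 CPM with group means removed, 18 passed a permutation test within groups after adjustment over the pairs, all of them positive, and the median Pearson r was 0.361. Hspa1a and Hspa1b were nearly one measurement, at r = 0.98 (Spearman rho 0.98, permutation adjusted p = 0.00011 and 0.00015). In the first block, mainly cytosolic, Hspa8 and Hsph1 had r = 0.85 (rho 0.84) and Hsph1 and Hsp90aa1 r = 0.84 (rho 0.81). Hspa1a and Dnajb1 had r = 0.84 (rho 0.82). The permutation adjusted p of these pairs lay between 0.00011 and 0.00054. Hspd1 and Hspe1 formed the second block at r = 0.85 (rho 0.87, permutation adjusted p = 0.00011 and 0.00015). None of the 16 pairs of one of them with another chaperone passed, at r between -0.17 and 0.36. Without the 2 libraries farthest from the median, the r values of these 5 pairs were 0.98, 0.89, 0.87, 0.76 and 0.85. Within the controls alone these 5 pairs had r values of 0.96, 0.31, 0.785, 0.65 and 0.945. With celecoxib they had 0.99, 0.99, 0.94, 0.95 and 0.75, and with rofecoxib 0.98, 0.81, 0.94, 0.73 and 0.83. Hspa1a had r = 0.25 with Hspa8 and -0.03 with Hsph1 in controls, 0.78 and 0.78 with celecoxib, and 0.92 and 0.75 with rofecoxib. Some pairs of the first block were thus weaker or absent in controls. The first block did not follow the compartment. Hspa5, of the endoplasmic reticulum, passed with Hsph1 (r = 0.70), Hsp90aa1 (0.66), Hspa8 (0.64) and Hspb1 (0.50), at permutation adjusted p between 0.0013 and 0.049. By rank Hspa5 and Hspb1 did not pass (rho 0.45, permutation adjusted p = 0.096). Their r was 0.37 without the 2 farthest libraries and -0.08 within the rofecoxib group. Hsp90aa1 did not pass with Hspa1a (0.41), Hspa1b (0.42) or Dnajb1 (0.34), and neither did Hspa5.

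Part of the first block went with the sets of replicates. Within replicates 1 to 4 the 5 pairs had r values of 0.96, 0.52, 0.89, 0.58 and 0.97. Within replicates 5 to 8 they had 0.97, 0.89, 0.67, 0.79 and 0.80. Only 3 and 4 of the 45 pairs passed within the sets. With 4 libraries a group instead of 8, fewer passing pairs could come from the smaller number alone. Hspa1a and Hsph1, at r = 0.67 (rho 0.69, permutation adjusted p = 0.0096 and 0.0055) over all libraries, had 0.20 and 0.15 within the sets, so that relation did not hold within them.

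**Figure D5:**
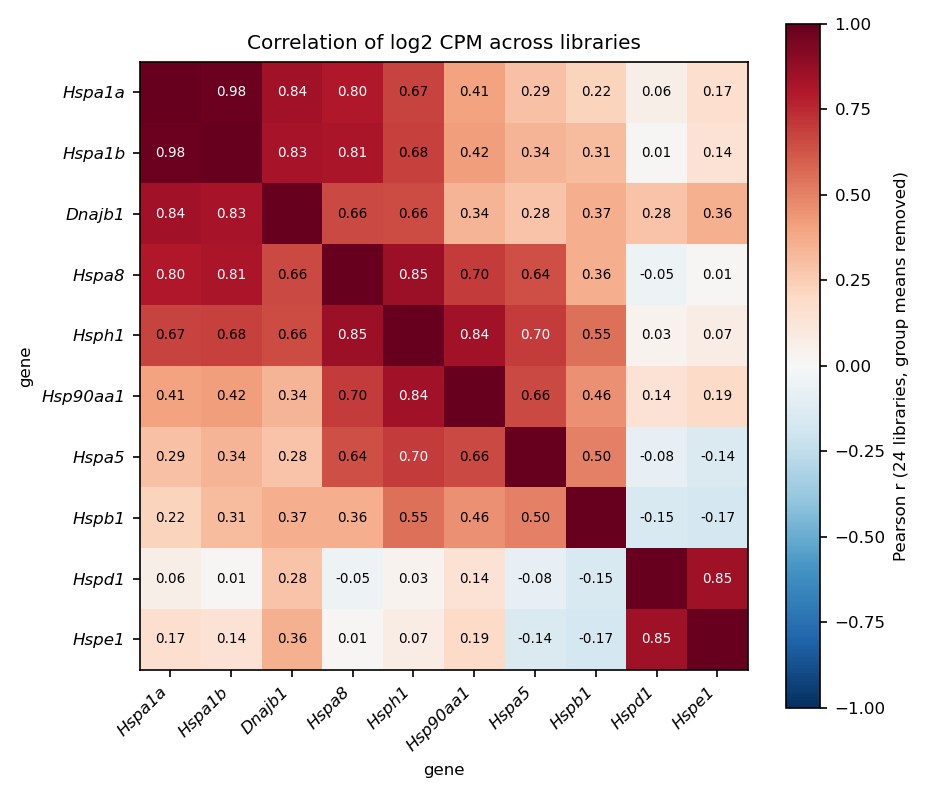
Pearson r between the log2 CPM of each pair of chaperones over 24 libraries, with group means removed; red is positive and blue negative. The cytosolic chaperones and Hspa5 form a red block at the upper left, in which not every pair passed the test. Hspd1 and Hspe1 form a pair at the lower right with r = 0.85, and the values between the blocks lie from -0.17 to 0.36.

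Marker levels moved with members outside the mitochondria too. Hsph1 correlated with the smooth muscle list at r = 0.72 (rho 0.74, permutation adjusted p = 0.0038 and 0.004), as did Hsp90aa1 at 0.69 (rho 0.71, permutation adjusted p = 0.0099 and 0.0092) and Hspa8 at 0.64 (rho 0.80, permutation adjusted p = 0.021 and 0.0038). Hspa8 and the fibroblast list had r = -0.68 (rho -0.62, permutation adjusted p = 0.018 and 0.027). Without the 2 libraries farthest from the median level of the list, these 4 values were 0.71, 0.65, 0.71 and -0.66. Hspb1 correlated with immediate early genes at r = 0.66 (rho 0.60, permutation adjusted p = 0.0099 and 0.027), and at 0.67 without the 2 farthest libraries. Hspa5 correlated with the endothelial (r = -0.64), macrophage (-0.60), smooth muscle (0.55) and neutrophil (-0.52) lists, at permutation adjusted p between 0.0099 and 0.031. Hsph1 also passed with the endothelial (-0.64) and macrophage (-0.61) lists, and Hspa1a (-0.63) and Hspa1b (-0.64) with the fibroblast list. By rank, Hsph1 and the macrophage list did not pass (rho -0.49, permutation adjusted p = 0.12). Within replicates 1 to 4 and 5 to 8, the smooth muscle list had r = 0.82 and 0.60 with Hsph1 and 0.67 and 0.38 with Hsp90aa1. With Hspa8 it had 0.53 and 0.48, and the fibroblast list had -0.61 and -0.67 with Hspa8. Mean log2 levels of the smooth muscle list in the 2 sets were 10.405 and 10.252 with celecoxib but 10.027 and 10.19 with rofecoxib. Those of the endothelial list were 5.58 and 5.986, and 6.235 and 5.923. For the fibroblast list they were 8.261 and 8.602, and 8.411 and 8.445. The part of the sets in these relations was not tested. In all, 16 of 110 relations between a chaperone and a list passed by Pearson r. The smooth muscle genes, 8 of 8 tested and none at 0 in any library, summed to between 26090 and 42160 CPM per library over all groups, and smooth muscle is the main cell type of the labelled artery.

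Among the other small heat shock proteins, which like Hspb1 hold unfolded proteins in solution, 3 of 6 tested fell with rofecoxib and 0 rose, beside 3.06% of all genes lower and 3.88% higher. Hspb8 went from 177 ± 15.7 CPM in controls to 135 ± 13.9 CPM (log2 fold change -0.39, SE 0.08, adjusted p = 0.00788), Hspb6 from 151 ± 19.5 to 110 ± 13.1 CPM (-0.45, SE 0.10, adjusted p = 0.0183) and Hspb7 from 771 ± 46.1 to 607 ± 52.9 CPM (-0.34, SE 0.09, adjusted p = 0.0242). Hspb7 ranged from 684 to 820 CPM in controls and from 520.5 to 679.5 CPM with rofecoxib, so the groups did not overlap. With the brown adipocyte and skeletal muscle covariates Hspb8 was still called (adjusted p = 0.0203), while Hspb6 (0.062) and Hspb7 (0.0846) were not. Hspb7 also lost its call without rofecoxib replicate 7 (0.0507). In replicates 1 to 4 alone none of Hspb8, Hspb6 and Hspb7 was called (adjusted p = 0.0588, 0.141 and 0.123). The same held in 5 to 8 alone (0.0826, 0.0722 and 0.0896). Their log2 fold changes in the sets lay between -0.51 and -0.32. All 3 genes are known as muscle chaperones, and the 8 smooth muscle markers had log2 fold changes between -0.20 and -0.06 with rofecoxib, 0 of them called. With celecoxib 0 of 6 passed and 2 had an unadjusted p under 0.05, beside 13.6% of all genes. These were Hspb6 at -0.26 (SE 0.10, adjusted p = 0.289) and Hspb2 at 0.20 (SE 0.10, adjusted p = 0.366).

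Partners of the cytosolic HSP70 and HSP90 members were called with rofecoxib at a share near that of all genes (6.94%). Of 13 other HSP70 and nucleotide exchange genes, 1 was called, Hspa2, an HSP70 known from testis, which fell with rofecoxib from 57.9 ± 9.40 to 44.5 ± 6.65 CPM (log2 fold change -0.38, SE 0.12, adjusted p = 0.0488), a call lost in 14 of the 24 fits that left out 1 library. Of 18 HSP90 genes and co-chaperones, 1 was called with rofecoxib: Fkbp5, which binds HSP90 in steroid receptor complexes and is induced by glucocorticoids, fell from 494 ± 49.7 to 279 ± 107 CPM (-0.82, SE 0.20, adjusted p = 0.0216), and 7 of 8 libraries were below the lowest control. With the brown adipocyte and skeletal muscle covariates its adjusted p was 0.0701, at a log2 fold change of -0.81. Its log2 fold change with rofecoxib was -0.45 in replicates 1 to 4 alone (adjusted p = 0.295) and -1.29 in 5 to 8 alone (adjusted p = 0.00655). With celecoxib Fkbp5 had a log2 fold change of -0.46 (SE 0.20, adjusted p = 0.319). Neither the 14 cytosolic J-domain proteins nor the 14 chaperonin (CCT) and prefoldin genes held a called gene in a comparison of 2 groups. Their smallest p with rofecoxib were those of Dnajb12 (-0.17, SE 0.06, adjusted p = 0.0671) and Pfdn1 (0.27, SE 0.10, adjusted p = 0.0833).

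The regulators of the response did not pass. Of 5 tested genes of heat shock factors and their regulators, 0 were called by edgeR in any comparison and 0 had an unadjusted p under 0.05. Hsf1, the factor that induces these chaperones, was at 64.0 ± 3.88 CPM in controls, 62.9 ± 5.91 CPM with celecoxib and 59.9 ± 4.08 CPM with rofecoxib (log2 fold change -0.10 with rofecoxib, SE 0.06, adjusted p = 0.25).

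The partners of Hspa5 in the endoplasmic reticulum lay mostly above 0 with celecoxib without passing in that comparison. Of 20 tested, 17 had a log2 fold change above 0, with a median of 0.105 beside 0.0014 for all genes. At an unadjusted p under 0.05 there were 7 of them, beside 13.6% of all genes, but 0 were called. Hsp90b1, the HSP90 of that compartment, was at 546 ± 50.6 CPM in controls and 659 ± 73.5 CPM with celecoxib (log2 fold change 0.27, SE 0.07, adjusted p = 0.15), and the disulfide isomerase Pdia6 at 154 ± 9.28 and 177 ± 14.4 CPM (0.21, SE 0.05, adjusted p = 0.148). In the joint test of the 3 diets these were the 2 of 20 called (adjusted p = 0.037 for Hsp90b1 and 0.0405 for Pdia6), beside 7.62% of all genes. With rofecoxib 9 of 20 were above 0, with a median of -0.006. Pdia6 was among these 9, at 172 ± 12.4 CPM (log2 fold change 0.16, SE 0.05, adjusted p = 0.0629), with 5 rofecoxib libraries above the highest control. Between celecoxib and rofecoxib 19 of 20 were above 0, with a median of 0.107 beside 0.0061 for all genes. In that comparison 8 had an unadjusted p under 0.05, beside 23% of all genes, and 0 were called. Hspa5 itself was at 964 ± 106 CPM in controls and 1022 ± 173 CPM with celecoxib. Of 15 unfolded protein response genes, 0 were called in any comparison. With celecoxib 3 of the 15 had an unadjusted p under 0.05, beside 13.6% of all genes. Among these was Ddit3, a transcription factor of that response, at 0.22 (SE 0.10, adjusted p = 0.336).

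The genes outside the 10 whose levels across libraries were most like the chaperones' mean were also chaperones in part. Likeness was the Pearson r with the mean of the members' standardised log2 CPM over 24 libraries, with group means removed. Hsp90ab1, the constitutive HSP90, came first at 0.913, followed by Ahsa2, a homologue of an HSP90 activator, at 0.893, Cdc42se1 at 0.858, 2310022B05Rik at 0.844 and Npas4 at 0.84. Dnajb4, an HSP40, had 0.834, Abra 0.829, Homer1 0.825, Ahsa1, that HSP90 activator, 0.815 and Tmem65 0.81. The members themselves had between 0.31 for Hspd1 and 0.896 for Hsph1.

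Some of these values rest on reads that near-identical genes could share, since the sources used here do not give the counting method. Of all 50-base windows of the transcript, 60.3% in Hspa1a and 62.3% in Hspa1b were found in another gene, mostly each other, so the split of reads between them is uncertain. Summed into 1 feature they were not called in any comparison either. For Hspa8 the share was 73.2%, for Hsp90aa1 58.5%, for Hspb1 51.6%, for Hspd1 44.8% and for Hspe1 36.1%, mostly with copies elsewhere in the genome. It was 0.407% for Dnajb1 and 0 for Hspa5 and Hsph1. Hspd1 and Hspe1, on chromosome 1 of mm9 from 55134477 to 55145289 and from 55144774 to 55148353, overlap by 516 bases in the table's coordinates, and whether reads there were separated by strand was not given. Hspa1a and Hspa1b lie on chromosome 17 of mm9, from 35105942 to 35109271 and from 35093179 to 35096385.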

How the data were processed

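Poly(A)-selected RNA of thoracic aorta was sequenced from 24 mice, 8 per diet group, with groups and replicate numbers taken from the sample labels. The authors deposited whole-number read counts per gene, and these counts were used as given. CASAVA 1.8.1, STAR 2.5.1b and mm9 appear in the submitters' processing notes; how reads were counted, with which annotation and strand setting, is not given in the sources used here. Each library held 21668798 to 21700121 reads. That range of 0.145% is closer than sequencing alone usually leaves, so the original depth is unknown.

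The fit was made with edgeR 4.0.16 (R 4.3.3). Genes were filtered with filterByExpr, which left 14528, and scaled by TMM. Group means were fitted over all 24 libraries and compared by two-sided quasi-likelihood tests. A gene was called where its p, adjusted by Benjamini-Hochberg across the whole filtered table, was under 0.05. The common biological coefficient of variation was 19.6%. Correlations were taken on log2 CPM (prior count 2), with 100000 permutations within groups that did not keep the sets of replicates apart. The smallest p these can give is 1e-05. DESeq2 1.42.0, limma voom (limma 3.58.1) and other settings were alternatives.

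All 10 members were named. Of each other chaperone list, at most 4 called genes, ranked by p, or 2 where none passed, could be named, with the 10 genes most like the members' mean. The members, lists and tests were chosen with earlier results of these data known. The scripts were tested on simulated counts. For celecoxib against control (14432 genes) the fit found 36% of the genes set to a 1.25-fold change and 76% of those set to 1.5-fold, and 11 genes falsely. For rofecoxib against control (14430 genes) it found 32% and 72%, and 3 falsely.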

Additional observations from a re-analysis of the deposited data

How the results depend on the processing

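No chaperone reversed a call under the alternatives run, and with celecoxib against control 0 chaperones were called under each of them. Of the values of the chaperones and other named genes under the alternatives, 2932 stayed on their side of the threshold, 95 passed newly and 115 no longer passed. The number of chaperones called with rofecoxib against control rose from 0 to 2, Hspd1 and Hspe1, with library size alone, DESeq2, voom and a term for the replicate sets (1 to 4 against 5 to 8), and was 0 to 2 when 1 library was left out. Between celecoxib and rofecoxib it went from 1 to 0 without a filter, with only these groups, in replicates 5 to 8 and with brown adipocyte and skeletal muscle covariates, to 5 in replicates 1 to 4, and to between 0 and 1 when 1 library was left out. In the joint test it was 2 with library size alone, DESeq2 and voom, 3 in replicates 1 to 4, 0 in replicates 5 to 8 and with the covariates, and 0 to 2 when 1 library was left out. The median log2 fold change between the drugs was 0.382 in replicates 1 to 4 and -0.401 in 5 to 8; leaving out 1 library gave -0.072 to 0.023 for celecoxib, -0.178 to 0.008 for rofecoxib and 0.052 to 0.15 between them. The number of correlated pairs was 3 and 4 within the sets. The cause of these changes was not tested.

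Counts over all genes moved as follows. For celecoxib against control, 5 became 2 without a filter, 110 with DESeq2 (67 higher and 43 lower), 121 with voom (71 and 50), 45 with 2 groups, 174 with the set term, 9 and 313 in replicates 1 to 4 and 5 to 8, 0 with the covariates (2324 at an unadjusted p under 0.05) and 0 to 34 when 1 library was left out, 0 without control replicate 3. For rofecoxib against control, 1008 became 557, 1812 (DESeq2), 2448 (voom), 1735 (set term), 42 and 401 (sets), 187 (covariates) and 358 to 1945 when 1 library was left out. Between the drugs, 710 became 0 without a filter (4367 unadjusted), 1419 with DESeq2, 0 with only 2 groups (2816 unadjusted), 2073 and 0 in the sets (896 unadjusted in the second), 0 with the covariates (1509 unadjusted) and 0 to 1997 when 1 library was left out. The joint count of 1107 became 355, 2259, 2654 and 1896 without a filter, with DESeq2, voom and the set term, 314 in replicates 5 to 8, 99 with the covariates and 211 to 2434 when 1 library was left out. With library size alone 78.1% of the genes called with rofecoxib were higher, against 55.9% with TMM, and 42.9% against 20% with celecoxib, of 7 and 5 genes. The other scalings moved the median of all genes by at most 0.0615 (log2).

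The replicate numbers did not clearly pair the samples. Of 24 same-numbered pairs 12 correlated over 0.1, from -0.303 to 0.56, and 7 libraries correlated best with their own number. How many would do so with unrelated numbers was not worked out. With the number as a replicate block, 27 genes were called for celecoxib against control and 0 between the drugs (3169 unadjusted). Hspe1 then passed for rofecoxib against control, 1 chaperone called, at 0.29 (adjusted p = 0.0428), and Hspd1 did not between the drugs, 0 called, at -0.42 (adjusted p = 0.0532). The interaction and set terms were chosen after seeing the data. No depth limit could be set, since the original depth is unknown.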
